A study of Homo sapiens with 6 samples.

Results

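The histone genes of SK-N-BE(2)-C cells, an established human neuroblastoma line, were described in 6 single-cell RNA libraries. They were the symbols of the deposited gene list that match the names of the histone clusters (HIST1 to HIST4) and of the variant families (H1F, H2AF, H2BF and H3F3). Of 36601 genes listed, 91 matched, and 1 of these, H1FX-AS1, is an antisense transcript and was set aside. The remaining 90 divided into 71 cluster genes and 19 variant genes. Of these, 82 had at least 1 unique molecular identifier (UMI, the tag that marks an RNA molecule), and 68 had enough counts to be tested: 57 cluster genes and 11 variants. The libraries were made with Seq-Well S3, in which cells are captured in small wells with barcoded beads, and fell into 3 groups of 2 by treatment: DMSO (the solvent control), TSA (the usual short name of trichostatin A, an inhibitor of the catalytic activity of histone deacetylases) and E6R. By the series title, an inhibitor that acts on HDAC complexes without blocking the enzyme is studied; what E6R is chemically, how much of each compound was given and for how long are not stated in the sources at hand. All groups were the same cell line, with no genetic change named in the labels, and nothing says whether replicates were separate cultures, so p-values measure only the spread between these libraries.

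Histones package DNA into nucleosomes: H2A, H2B, H3 and H4 form the core, and H1 binds the DNA that links cores. The cluster genes are transcribed while DNA is replicated, and most of their mRNAs end not in a poly(A) tail but in a stem-loop bound by SLBP, the stem-loop binding protein. Variant genes such as H1F0 or H3F3B are transcribed throughout the cell cycle into polyadenylated mRNAs, and their products replace cluster histones at particular places or in cells that have stopped dividing. Because the beads capture poly(A), the values here count polyadenylated forms, and the amount of tail-less cluster mRNA was not measured.

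The stem-loop itself is shown for the genes that the results turn on. It was searched in GENCODE 29 transcripts as the 16-base histone stem-loop core, which is in capitals, with 5 bases on each side.
HIST3H2BB: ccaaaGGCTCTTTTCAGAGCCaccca
HIST3H2A: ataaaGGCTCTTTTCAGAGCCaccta
HIST2H2BF: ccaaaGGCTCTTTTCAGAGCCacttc
HIST1H2BD: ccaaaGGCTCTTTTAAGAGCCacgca
HIST1H3E: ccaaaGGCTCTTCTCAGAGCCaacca
H2AFX: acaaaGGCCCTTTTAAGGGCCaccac
The core was present in transcripts of 32 of the 69 cluster genes that GENCODE 29 holds (46.4%), in 1 of 19 variants, H2AFX, and in 185 of all 58676 genes (0.315%). Of the 32 cluster genes, 19 had the letters AATAAA, a polyadenylation signal, further along the same transcript. The annotated HIST3H2BB transcript ran on for 1917 bases after the stem-loop, that of HIST2H2BF for 1479 bases and that of HIST3H2A for 390 bases. Many other cluster models, among them those of HIST1H1C, HIST1H1E and HIST1H4C, hold no stem-loop in the annotation used. The 46.4% is thus a share of annotated models, and whether the other genes carry the element beyond their annotated ends was not tested.

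Promoters of the classes shared some motifs and differed in others. The 200 bases before the start are shown for 3 cluster genes and 2 variants named below, from RefSeq on GRCh38.p14, with capitals for every match, on either strand, to CCAAT (the CCAAT box), TATAAA (the TATA box), ATTTGCAT (the octamer), AAACACAA (an H1 box) or TTTNNCGC (an E2F-like run). HIST3H2BB lies at chr1:228457903-228458102 (plus strand), HIST2H2BF at chr1:149812371-149812570 (minus), HIST1H1E at chr6:26156129-26156328 (plus), H2AFZ at chr4:99950276-99950475 (minus) and H2AFY2 at chr10:70052646-70052845 (plus).
HIST3H2BB: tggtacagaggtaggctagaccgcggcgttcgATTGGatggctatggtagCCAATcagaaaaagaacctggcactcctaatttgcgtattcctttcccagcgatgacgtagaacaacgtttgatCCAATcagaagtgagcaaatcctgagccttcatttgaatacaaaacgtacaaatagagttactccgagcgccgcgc
HIST2H2BF: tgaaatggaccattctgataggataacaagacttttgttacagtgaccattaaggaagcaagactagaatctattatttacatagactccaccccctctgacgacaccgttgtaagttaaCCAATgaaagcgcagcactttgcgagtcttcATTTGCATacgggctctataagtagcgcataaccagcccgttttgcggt
HIST1H1E: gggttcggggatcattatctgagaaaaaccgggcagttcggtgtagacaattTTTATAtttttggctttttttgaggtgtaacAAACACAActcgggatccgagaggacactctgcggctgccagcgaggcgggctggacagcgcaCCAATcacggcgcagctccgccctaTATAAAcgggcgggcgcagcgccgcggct
H2AFZ: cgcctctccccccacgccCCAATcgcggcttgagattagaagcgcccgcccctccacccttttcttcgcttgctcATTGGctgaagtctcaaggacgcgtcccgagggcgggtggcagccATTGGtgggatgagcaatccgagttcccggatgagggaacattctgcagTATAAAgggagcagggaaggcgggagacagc
H2AFY2: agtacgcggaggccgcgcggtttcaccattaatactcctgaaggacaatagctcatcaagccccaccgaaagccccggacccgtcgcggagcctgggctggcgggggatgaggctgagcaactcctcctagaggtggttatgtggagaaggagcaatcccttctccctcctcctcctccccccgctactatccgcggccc
In windows from 250 bases before to 50 bases after the start, CCAAT was found in 84.8% of 66 cluster promoters, in 81.2% of 16 variant promoters and in 35.7% of all 27305 promoters. The TATAAA letters were found in 66.7%, 25% and 11.95% of them in the same order. ATTTGCAT was found in 39.4% of cluster promoters, in 6.25% of variant promoters and in 1.80% of all promoters. The octamer letters stood in 14 of 18 H2B and 11 of 16 H2A promoters, and AAACACAA in 4 of 6 H1 promoters against 1.61% of all promoters. CCAAT stood in every cluster H1, H2A, H2B and H3 promoter, but in only 3 of 13 H4 promoters (23.1%). Neighbouring H2A and H2B genes on opposite strands can have overlapping windows, so the same site can be counted for both. HIST1H3D and HIST1H2AD have the same window. Of the windows shown, that of H2AFY2 held none of these letters.

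The cells kept numbered 17589, and library sums lay between 4206366 UMIs (DMSO replicate 1) and 26180262 UMIs (E6R replicate 2). All 9 adrenergic neuroblastoma markers examined (PHOX2A, HAND2, GATA3 and others) exceeded 1 CPM (counts scaled to a library of 1000000 UMIs) on average; their summed level was 22.2 to 24.1 UMIs per 10000 under DMSO, 11.3 to 12.02 under TSA and 18.9 to 28.4 under E6R. The 14 markers of fibroblast, blood, epithelial and endothelial cells summed to 0.390 to 1.80 UMIs per 10000 under DMSO, 0.703 to 1.30 under TSA and 0.465 to 2.56 under E6R, with none at 0 in every library. Of these 14 markers, 9 also reached 1 CPM on average, so that cut does not set the adrenergic list apart. Mitochondrial genes took 5.83% and 6.20% of the UMIs in the DMSO libraries, 6.08% and 9.71% under TSA, and 1.55% and 1.51% under E6R. The part of the marker levels in the histone results was not tested. Without mitochondrial and ribosomal protein genes in the sums, 35 histone genes were called for TSA against DMSO and 15 for E6R against TSA, in place of 37 and 18. Pairs of libraries shared 11 to 58 cell barcodes, at most 2.11% of the smaller library. CPM below are scaled by edgeR's TMM factors.

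TSA against DMSO asked which histone genes changed when deacetylase activity was inhibited. Among the variants tested, 4 of 11 were higher and 2 lower under TSA (edgeR quasi-likelihood test, Benjamini-Hochberg adjusted p under 0.05), where 29.7% of the 16763 genes tested were called, 16.2% higher and 13.5% lower. The risen variants were H1F0, H2AFJ, H1FX and H3F3B, and the fallen ones H2AFY2 and H2AFZ. The median log2 fold change of the 11 was 0.43, against -0.01 over all genes.

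H1F0 encodes H1.0, the linker histone known to accumulate in differentiated and resting cells and a known target of deacetylase inhibitors (ENSG00000189060, chr22:37805093-37807436, plus strand of GRCh38). It had 55.9 and 85.3 CPM under DMSO, 891 and 1489 under TSA, and 70.7 and 75.2 under E6R. The TSA libraries stood far above all others, while the DMSO and E6R libraries overlapped. The log2 fold change under TSA was 4.07 (SE 0.34, adjusted p = 0.000685), and the adjusted p lay between 1.12e-42 and 0.0157 over 20 alternatives. H1FX, the gene of the linker histone H1.X, had 181 and 160 CPM under DMSO, 457 and 383 under TSA, and 214 and 167 under E6R. Both TSA libraries were above the other 4 (log2 fold change 1.30, SE 0.22, adjusted p = 0.00487). H1FX overlaps H1FX-AS1 on the other strand, which had 3.57 to 7.14 CPM, and reads of the pair cannot be told apart where the counting strand is not given.

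H2AFY2 encodes macroH2A2, an H2A with a large extra domain that is usually linked to silent chromatin (ENSG00000099284, chr10:70052796-70112280, plus strand, overlapping AIFM2 on the other strand). Its promoter is the one printed above without a match. It had 36.5 and 31.6 CPM under DMSO, 3.11 and 5.49 under TSA, and 48.3 and 58.8 under E6R. The TSA libraries lay well below the rest and the groups did not overlap, and the log2 fold change came to -2.99 (SE 0.32, adjusted p = 0.00118). H2AFZ (ENSG00000164032, chr4:99948086-99950388, minus strand) encodes H2A.Z.1, a variant found at promoters. It had 643 and 373 CPM under DMSO, 268 and 153 under TSA, and 720 and 556 under E6R. Again both TSA libraries were the lowest, and the log2 fold change came to -1.27 (SE 0.35, adjusted p = 0.0302). The H2AFZ call was lost without DMSO replicate 1 (adjusted p = 0.182), without TSA replicate 2 (0.203) and when G1 cells alone were summed (0.349). AC097460.1 overlaps H2AFZ on the other strand.

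H2AFJ, which encodes the variant H2A.J, had 66.3 and 55.5 CPM under DMSO, 163 and 152 under TSA, and 98.3 and 63.7 under E6R. The TSA libraries were the highest (log2 fold change 1.37, SE 0.25, adjusted p = 0.00644; 0.0614 without DMSO replicate 2). H3F3A and H3F3B both encode the same protein, H3.3, the H3 laid down outside replication. H3F3B had 708 and 719 CPM under DMSO, 1404 and 1324 under TSA, and 953 and 678 under E6R, so that the TSA libraries were highest and the DMSO and E6R libraries overlapped. Its log2 fold change under TSA was 0.94 (SE 0.23, adjusted p = 0.0183). The H3F3B call was lost with total counts in place of TMM (adjusted p = 0.0733) and when G1 cells alone were summed (0.104). It was also lost without DMSO 1, DMSO 2, TSA 1 or TSA 2, at log2 fold changes of 0.96, 0.87, 0.92 and 1.02. H3F3A had 933 and 1111 CPM under DMSO, 1383 and 1305 under TSA, and 1946 and 1559 under E6R, and did not pass (log2 fold change 0.40, adjusted p = 0.198).

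The other variants did not pass under TSA. H2AFV, which encodes H2A.Z.2, had 253 and 210 CPM under DMSO and 275 and 221 under TSA (adjusted p = 0.765). H2AFY, which encodes macroH2A1, had 231 and 164 CPM under DMSO and 186 and 156 under TSA (adjusted p = 0.516). H2AFX, the source of H2A.X that is phosphorylated at DNA breaks, had 51.2 and 78.0 CPM under DMSO and 77.0 and 97.7 under TSA (adjusted p = 0.244). In each of these 3 genes the DMSO and TSA libraries overlapped. H3F3C, a testis-specific H3 gene, had at most 3.66 CPM in any library.

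**Figure D1:**
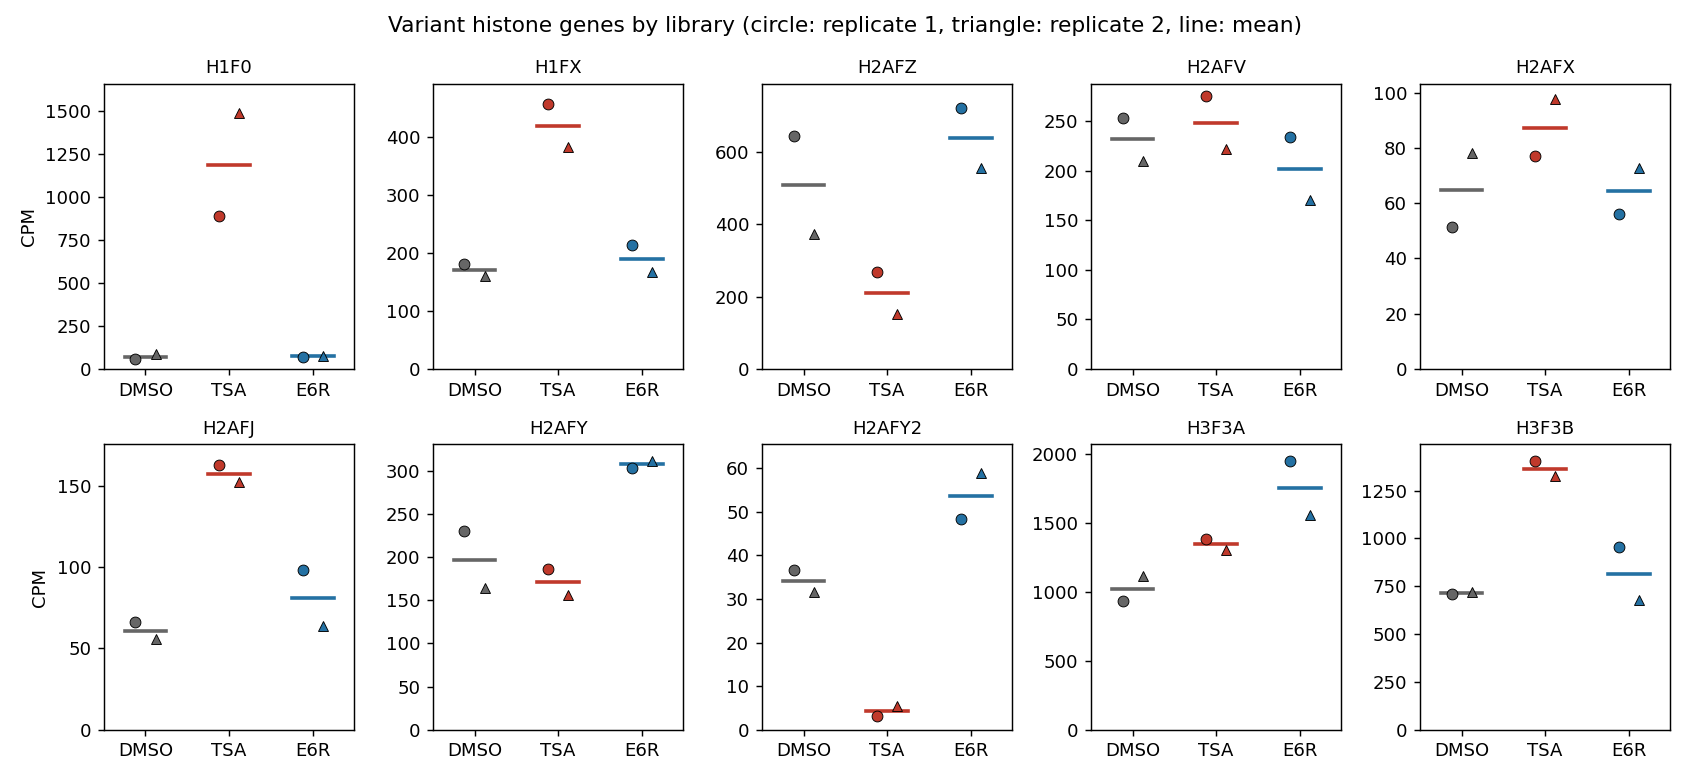
CPM (y axis, linear from 0) of the 10 variant histone genes with a mean of at least 5 CPM, by treatment; circles are replicate 1, triangles replicate 2 and lines group means. H1F0 stands at 891 and 1489 CPM under TSA and at most 85.3 CPM elsewhere, and H2AFY2 at no more than 5.49 CPM under TSA and at least 31.6 CPM elsewhere.

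Paired variants shifted within their own families. H1F0 made up 14.0% and 14.6% of the UMIs of all H1 genes under DMSO, 46.6% and 56.9% under TSA, and 9.61% and 8.61% under E6R. The share of H2AFY2 in the macroH2A UMIs was 13.7% and 16.2% under DMSO, 1.64% and 3.40% under TSA, and 13.7% and 15.9% under E6R. The share of H2AFZ in the H2A.Z UMIs was 71.8% and 64.0% under DMSO, 49.3% and 40.9% under TSA, and 75.5% and 76.5% under E6R. H3F3B held 43.2% and 39.3% of the H3.3 UMIs under DMSO, 50.4% and 50.4% under TSA, and 32.9% and 30.3% under E6R. In these 4 shares the TSA libraries stood clear of all other libraries. The share of H1FX in the H1 UMIs was 45.5% and 27.2% under DMSO, 23.9% and 14.6% under TSA, and 29.004% and 19.2% under E6R; there the TSA libraries lay below DMSO, although the H1FX level was called higher, and overlapped those of E6R. These are shares of the UMIs counted, without tail-less cluster H1 mRNA, and an exact two-sided permutation test of 2 libraries against 2 cannot go below p = 0.333.

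Cluster genes were mostly higher under TSA. Of the 38 that lay above the low-count filter in both DMSO libraries, 18 were higher and 1 lower, and their median log2 fold change was 1.32. Of all 57 tested, 30 were higher and 1 lower, but 19 of the 57 were below the filter in a DMSO library, and such genes can pass it through the treated libraries alone. By type, and among the 38 alone, 3 of 4 H1 genes, 3 of 11 H2A, 7 of 10 H2B, 1 of 5 H3 and 4 of 8 H4 genes were called higher, beside the 16.2% of all genes given above. Both TSA libraries lay above both DMSO libraries in 30 of the 38, where 36.7% of all genes did so.

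The number of calls moved with single libraries: over all 68 members it was 37 with every library, 10 without TSA replicate 2, 17 without TSA replicate 1 and 17 without DMSO replicate 1. The share of all genes called fell too, from 29.7% to 7.79%, 9.84% and 14% in the same order. With the replicate number as a block it was 42, where 36.1% of all genes were called. With total counts in place of TMM the median of all genes moved from -0.01 to -0.32, and the median of the 57 cluster genes from 1.72 to 1.40; 26 members were then higher and 3 lower, against 34 and 3 with TMM.

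HIST1H4C is an H4 gene that took 31.4% to 43.6% of the cluster UMIs of a library. It had 177 and 303 CPM under DMSO, 575 and 1130 under TSA, and 464 and 747 under E6R. All treated libraries were above both DMSO libraries, and replicate 1 was the lower in every group. The log2 fold change under TSA was 1.83 (SE 0.41, adjusted p = 0.0141; 0.0770 without DMSO replicate 1 and 0.0954 without TSA replicate 2).

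The H1 genes of the cluster encode the main linker histones of dividing cells. HIST1H1C (H1.2) had 31.0 and 73.1 CPM under DMSO, 166 and 203 under TSA, and 95.9 and 151 under E6R. HIST1H1E (H1.4), whose promoter is printed above, had 38.9 and 90.3 CPM under DMSO, 157 and 268 under TSA, and 84.6 and 156 under E6R. HIST1H1D (H1.3) had 64.2 and 117 CPM under DMSO, 180 and 193 under TSA, and 203 and 197 under E6R. In all 3 genes the TSA libraries lay above the DMSO libraries, with log2 fold changes of 1.82 (HIST1H1C, adjusted p = 0.0130), 1.72 (HIST1H1E, 0.0274) and 1.04 (HIST1H1D, 0.0274). Without TSA replicate 2 the adjusted p was 0.0783 for HIST1H1C, 0.156 for HIST1H1E and 0.123 for HIST1H1D. Without DMSO replicate 1 it was 0.112 for HIST1H1E and 0.0939 for HIST1H1D, and without TSA replicate 1 it was 0.0513 and 0.0969. HIST1H1B (H1.5) overlapped between the groups, at 27.0 and 59.3 CPM under DMSO and 55.4 and 75.1 under TSA (adjusted p = 0.306, and 0.0385 with the replicate number as a block).

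Among H2A and H2B genes, HIST3H2BB had the largest fitted change under TSA. It had 1.27 and 1.15 CPM under DMSO, 12.9 and 19.9 under TSA, and 1.83 and 2.63 under E6R. The TSA libraries were far above the rest, and those of E6R a little above DMSO. The log2 fold change under TSA came to 3.75 (SE 0.47, adjusted p = 0.00185) and stayed past the threshold in the 19 alternatives that tested the gene. Its size rests on 6 UMIs in each DMSO library and ran from 3.06 to 8.28 over those alternatives. HIST2H2BF had 0.850 and 1.72 CPM under DMSO, 7.22 and 13.8 under TSA, and 3.41 and 3.42 under E6R. Its TSA libraries were again the highest (log2 fold change 3.004, SE 0.55, adjusted p = 0.00648). The call was lost in cells called S (adjusted p = 0.113) and without TSA replicate 2 (log2 fold change 2.51). FCGR1A overlaps HIST2H2BF on the other strand. HIST1H2AL, an H2A gene that overlaps HIST1H2BN on the same strand, had 1.27 and 1.72 CPM under DMSO, 7.44 and 15.1 under TSA, and 9.35 and 8.54 under E6R. All its treated libraries lay above DMSO, and the log2 fold change came to 2.89 (SE 0.49, adjusted p = 0.00518). The call was lost in cells called S (adjusted p = 0.149). In the DMSO libraries HIST2H2BF had 4 and 9 UMIs, and HIST1H2AL 6 and 9.

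More abundant H2A and H2B genes behaved less evenly. HIST1H2AE had 7.22 and 12.05 CPM under DMSO, 38.1 and 52.1 under TSA, and 20.8 and 22.7 under E6R, a clear order of the groups (log2 fold change under TSA 2.22, adjusted p = 0.00273). HIST1H2BD had 15.3 and 35.8 CPM under DMSO, 80.8 and 80.5 under TSA, and 22.5 and 38.4 under E6R, with the TSA libraries alone raised (1.65, adjusted p = 0.0197; 0.0680, 0.0848 and 0.0899 without DMSO 1, TSA 1 and TSA 2). HIST1H2BG had 25.3 and 31.6 CPM under DMSO and 49.9 and 45.9 under TSA and just missed the threshold (0.75, adjusted p = 0.0537; 0.0303 with the replicate block and 0.0498 with DESeq2). HIST2H2AC, at 17.0 and 29.1 CPM under DMSO and 39.3 and 80.9 under TSA, missed it as narrowly (1.38, adjusted p = 0.0532; 0.00121 with the replicate block and 0.0179 with DESeq2). HIST3H2A, HIST1H2AC and HIST1H2AJ had overlapping DMSO and TSA libraries, between 18.3 and 41.6 CPM.

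HIST1H3E was the cluster gene called lower, and is named here after its values were seen. It had 4.46 and 4.78 CPM under DMSO, 1.52 and 1.13 under TSA, and 6.44 and 4.48 under E6R. The TSA libraries were the lowest and the others overlapped (log2 fold change -1.79, SE 0.46, adjusted p = 0.0228). The call was lost without any DMSO or TSA library (adjusted p 0.0738, 0.0744, 0.108 and 0.175 without DMSO 1, DMSO 2, TSA 1 and TSA 2).

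**Figure D2:**
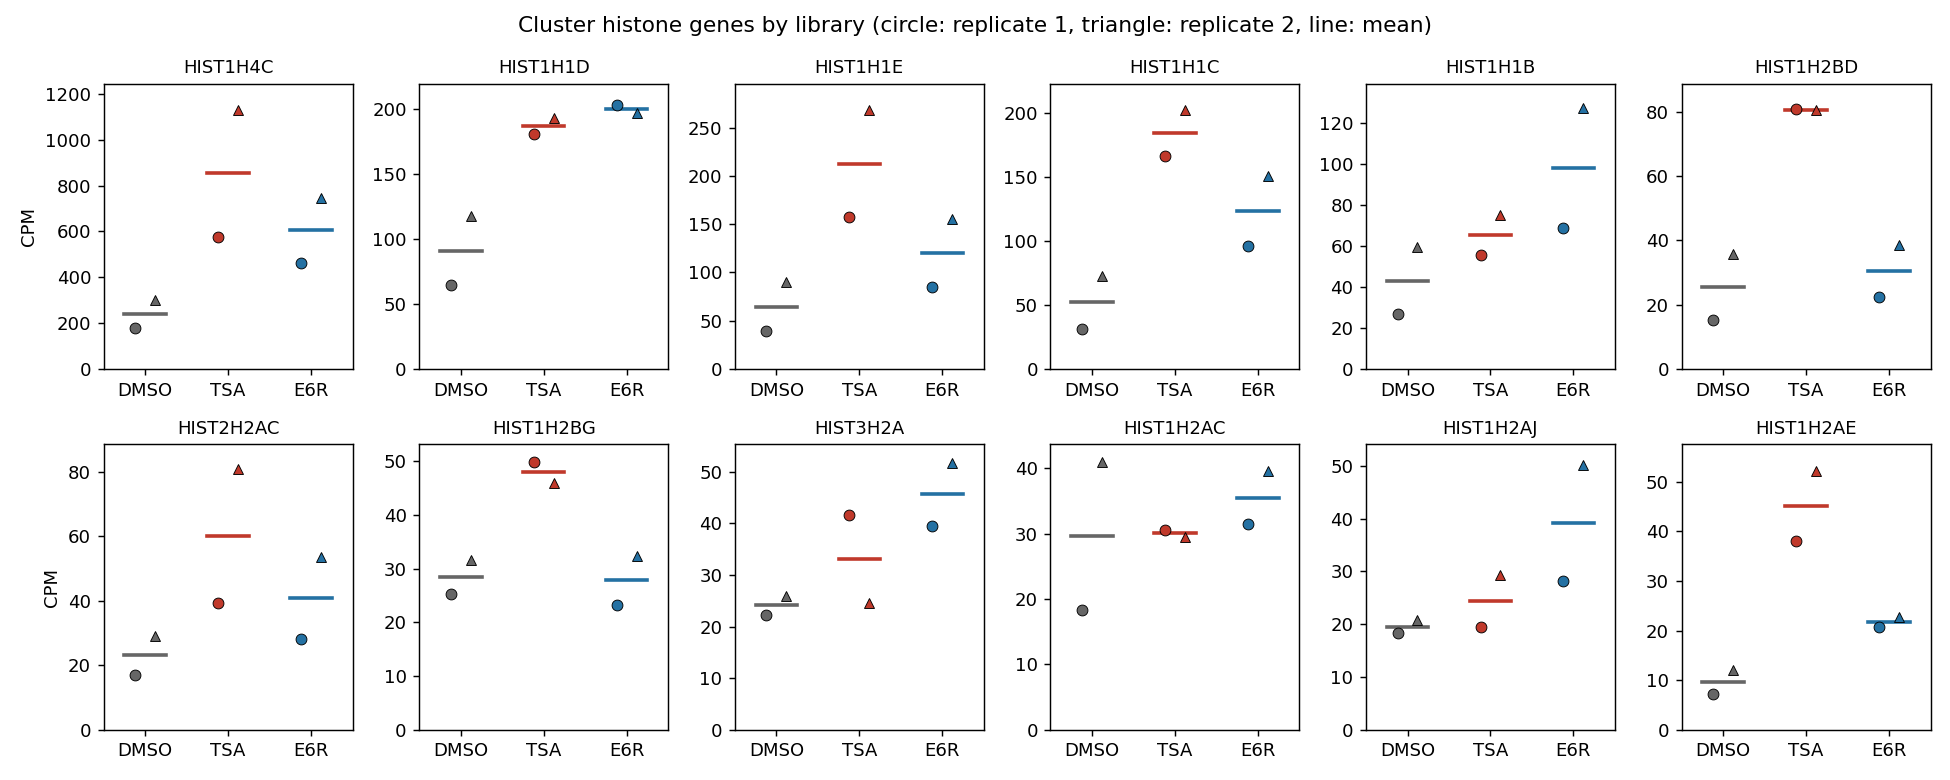
CPM (y axis, linear from 0) of the 12 cluster histone genes with the highest mean, by treatment; circles are replicate 1, triangles replicate 2 and lines group means. HIST1H4C reaches 575 and 1130 CPM under TSA and 464 and 747 under E6R over 177 and 303 under DMSO, while HIST1H2BD is raised under TSA only.

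Many cluster genes stand back to back, sharing one short stretch of DNA between starts on opposite strands. There were 12 such pairs of neighbours, 219 to 357 bases apart, and both genes were tested in 11; HIST1H2BO belongs to 2 of them. Under TSA both genes were called in 2 pairs, 1 gene in 7 and neither in 2, where 29.7% of all genes were called. With the replicate block both were called in 4 pairs, 1 gene in 6 and neither in 1, where 36.1% of all genes were called. The 2 pairs called without the block were HIST1H2BL with HIST1H2AI and HIST1H3J with HIST1H2BO. Each of their genes lay below the low-count filter in at least 1 DMSO library, and such genes can pass it through the treated libraries alone. The annotated HIST1H3J overlaps HIST1H2AM on the same strand, so the pairing of HIST1H3J with HIST1H2BO depends on that annotation. HIST1H2AM, the other neighbour of HIST1H2BO, was not called (log2 fold change 1.34, adjusted p = 0.119). A wide split was found at the chromosome 1 pair of HIST3H2A and HIST3H2BB, whose starts lie 234 bases apart and whose stem-loops are printed above. HIST3H2A had 22.3 and 26.0 CPM under DMSO, 41.6 and 24.5 under TSA, and 39.5 and 51.8 under E6R. Its log2 fold change under TSA was 0.45 (adjusted p = 0.285), against 3.75 for HIST3H2BB, which had 6 UMIs in each DMSO library. In the pair of HIST1H2BL and HIST1H2AI the log2 fold changes were alike, at 2.62 and 2.58 (SE 0.60 and 0.80). They rest on 2 and 4 UMIs under DMSO for HIST1H2BL and on 1 and 14 for HIST1H2AI.

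**Figure D3:**
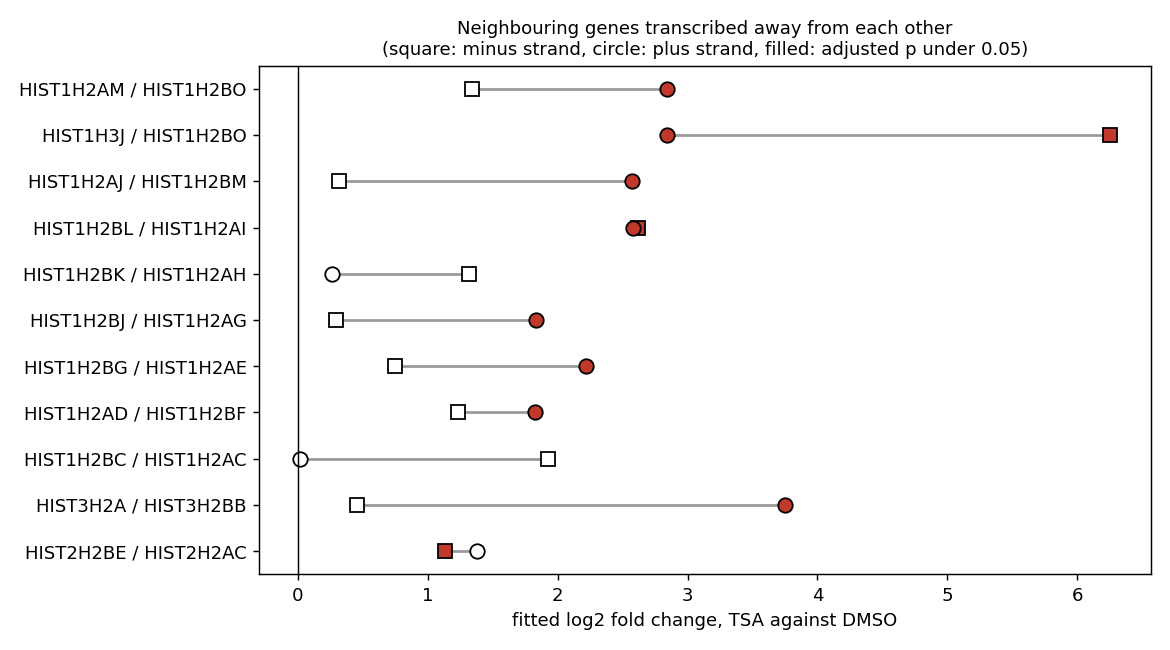
Fitted log2 fold change under TSA (x axis) for the 11 neighbouring pairs with both genes tested (y axis); squares are the gene on the minus strand, circles that on the plus strand, and filled symbols passed adjusted p under 0.05. HIST3H2BB stands at 3.75 and its neighbour HIST3H2A at 0.45; the value of HIST1H3J, with no UMI under DMSO, depends on the prior count of the fit.

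E6R against DMSO asked which histone genes differed under the other compound. No member passed the edgeR test (0 of 68; lowest adjusted p = 0.205), and 0% of all genes did. At an unadjusted p under 0.05 there were 41 members, all higher. Of all genes tested, 17.4% reached that level in either direction, and 8.04% of all genes tested reached it as higher. DESeq2 called 11 members, all higher (10 cluster genes and H3F3A), against 2.02% of all genes. With the replicate number as a block, 1 member was called, HIST1H4C (adjusted p = 0.0291), against 0.113% of all genes. Without a low-count filter edgeR called 32, against 3.47% of the 31532 genes then tested.

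The cluster genes lay above DMSO in most cases. Of the 38 above the filter in both DMSO libraries, 36 had positive fitted values, with a median log2 fold change of 1.15 against 0.03 over all genes. Both E6R libraries exceeded both DMSO libraries in 28 of the 38, where 24.6% of all genes did so. The low share of mitochondrial UMIs under E6R moves with this difference; without mitochondrial and ribosomal protein genes in the sums, the log2 ratio of the summed cluster level was 0.96, against 1.01 with them. With total counts the median of the 57 tested cluster genes was 1.26 and that of all genes -0.10, against 1.39 and 0.03 with TMM.

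HIST1H4C, given above, was at 1.34 on the log2 scale under E6R (SE 0.41, adjusted p = 0.215). HIST1H2AH, an H2A gene, had 4.67 and 7.65 CPM under DMSO, 7.67 and 7.14 under TSA, and 16.4 and 19.9 under E6R. The E6R libraries alone were raised, and the log2 fold change came to 1.55 (SE 0.35, adjusted p = 0.205; DESeq2 called it). HIST1H2AJ had 18.3 and 20.9 CPM under DMSO, 19.5 and 29.3 under TSA, and 28.2 and 50.3 under E6R, with E6R above DMSO in both libraries (1.01, adjusted p = 0.224). HIST1H1B had 68.7 and 127 CPM under E6R against 27.0 and 59.3 under DMSO, again without overlap (1.18, adjusted p = 0.229). HIST1H4L and HIST1H3J had no UMI in either DMSO library: for HIST1H4L the TSA libraries held 6 and 9 and the E6R libraries 31 and 27, and for HIST1H3J they held 9 and 9 and 17 and 20.

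No variant passed for E6R against DMSO. Their log2 fold changes had a median of 0.19. H1F0 was at 0.05 (SE 0.30, adjusted p = 0.953), with a mean of 70.6 CPM ± 20.8 (SD, n = 2) under DMSO and 72.9 CPM ± 3.16 under E6R. H2AFY2 was at 0.65 (adjusted p = 0.290) and H3F3A at 0.78 (adjusted p = 0.205). H2AFY had 303 and 312 CPM under E6R against 231 and 164 under DMSO, a log2 fold change of 0.64 (adjusted p = 0.228). None of these p-values shows that the levels were the same.

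**Figure D4:**
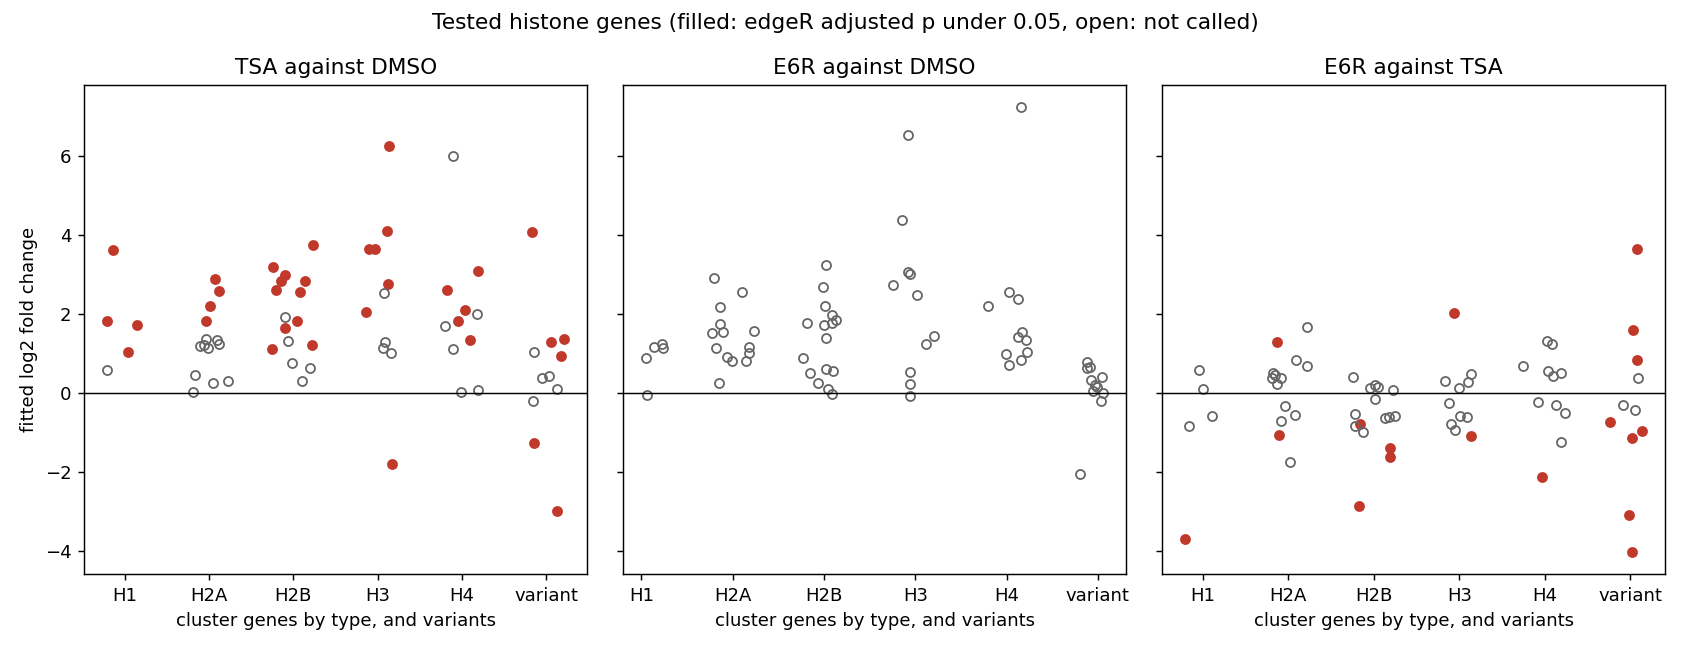
Fitted log2 fold change (y axis) of the 68 tested histone genes by type (x axis: cluster genes as H1, H2A, H2B, H3 and H4, then variants) in the 3 comparisons; filled points passed adjusted p under 0.05. Cluster genes lie mostly above 0 for TSA and for E6R against DMSO, with no call for E6R; the values of HIST1H3J and HIST1H4L, with no UMI under DMSO, depend on the prior count.

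E6R against TSA set the inhibitors against each other, at doses and times that are not given. Of the 68 members 5 were higher and 13 lower under E6R, where 38.2% of all genes were called, 18.7% higher and 19.5% lower. The higher ones were H2AFY2, H2AFZ, H2AFY, HIST1H2AH and HIST1H3E. Among the lower ones were H1F0, H1FX, H2AFJ, H3F3B and H3F3C of the variants, and 8 cluster genes led, among those of at least 5 CPM, by HIST3H2BB, HIST2H2BF and HIST1H2BD. The H3F3B call (-0.74, adjusted p = 0.0330) was lost in 10 of 20 alternatives, among them total counts (0.0856) and the sums without mitochondrial and ribosomal protein genes (0.0558), and without any DMSO or TSA library (0.0725, 0.0851, 0.153 and 0.126 without DMSO 1, DMSO 2, TSA 1 and TSA 2) or E6R 2 (0.175). The H2AFJ call (-0.96, adjusted p = 0.0167) was lost in G1 cells (0.0707) and without E6R 2, TSA 1 or TSA 2 (0.0656, 0.0990 and 0.0825). That of HIST1H3E (2.03, adjusted p = 0.00954) was lost without TSA 1 or TSA 2 (0.0603 and 0.104). The count was 18 with every library, 5 without TSA replicate 1 and 4 without TSA replicate 2, while the share of all genes called went from 38.2% to 17.7% and 14.4%. The replicate block gave 23, where 45.1% of all genes were called.

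The log2 fold change of H1F0 came to -4.03 (SE 0.34, adjusted p = 0.000399) and that of H2AFY2 to 3.64 (SE 0.32, adjusted p = 0.000447), and both passed in all 20 alternatives. HIST3H2BB was lower (-2.86, SE 0.41, adjusted p = 0.00172), as was H1FX (-1.14, SE 0.21, adjusted p = 0.00508), also in every alternative that tested them. H2AFZ was higher (1.60, adjusted p = 0.00988), as were HIST1H2AH (1.29, adjusted p = 0.0178) and H2AFY (0.85, adjusted p = 0.0203). The H2AFZ call was lost in G1 cells (0.0795) and without TSA 2 (log2 fold change 1.25). That of HIST1H2AH was lost without TSA 1 or TSA 2 (log2 fold changes 1.35 and 1.24). The H2AFY call was lost in G1 cells (0.207) and in cells called S (0.0595). It was also lost without TSA 1 or TSA 2 (log2 fold changes 0.99 and 0.72). HIST2H2BF was lower (-1.61, adjusted p = 0.0275). Its call was lost in thinned cells (0.164), with thinned library sums (0.0517) and in cells called S (0.0504). It was also lost without E6R 1, TSA 1 or TSA 2, at log2 fold changes of -1.54, -2.00 and -1.08. HIST1H2BD was lower too (-1.40, adjusted p = 0.0251). Its call was lost without E6R 1, TSA 1 or TSA 2, at log2 fold changes of -0.998, -1.40 and -1.41. The E6R and TSA libraries did not overlap in any of these 9 genes. All 9 had passed this comparison, which nearly fixes that outcome, so the lack of overlap is no separate support. Over all genes, called or not, 33.7% lay wholly higher under E6R and 38.9% wholly lower. The 57 cluster genes together were split, 27 with positive and 30 with negative fitted values and a median of -0.23; the median of all genes was -0.09. HIST1H4C (-0.49, adjusted p = 0.354; 0.072 on the log2 scale without TSA replicate 2) and the 4 most abundant cluster H1 genes did not pass. With the replicate block 2 of those H1 genes did, HIST1H1E (adjusted p = 0.00620 against 0.181 without it) and HIST1H1C (0.04998 against 0.263), as did HIST1H2AJ (0.0457 against 0.135).

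Summed over the 71 cluster genes, the level was 6.13 and 10.5 UMIs per 10000 under DMSO, 15.9 and 22.3 under TSA, and 14.1 and 19.3 under E6R. Replicate 1 was below replicate 2 in each group, and both treated groups stood above DMSO without overlap while overlapping each other. The log2 ratio of group means was 1.20 for TSA and 1.01 for E6R against DMSO, and stayed between 0.86 and 1.64 and between 0.67 and 1.45 when a library was left out. A sum over cells does not separate more cells with a transcript from more transcripts per cell.

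Because cluster genes are tied to DNA replication, the 43 genes of a published S phase list, which holds no histone gene, were set beside them. That list summed to 39.0 and 33.9 UMIs per 10000 under DMSO, 34.6 and 36.0 under TSA, and 42.6 and 52.6 under E6R. The TSA and DMSO libraries overlapped, and the E6R libraries were the highest. Under TSA 11 S phase genes were called higher and 2 lower, together 30.2%, near the 29.7% of all genes, with a median log2 fold change of 0.15; with the replicate block 13 were higher and 4 lower. Under E6R none was called against DMSO, at a median of 0.68, and 41 of the 43 had positive values (95.3%, against 52.0% of all genes).

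The cluster level was also read within called phases, in cells thinned to 1000 UMIs. The calls used the S phase list, which holds no histone gene, and a G2M list. Phase calls were uneven: 59.7% to 85.6% of cells were called G2M, and 14.7% and 5.65% were called S under DMSO, 8.59% and 9.68% under TSA, and 16.3% and 16.9% under E6R, and no cycling is read from them. In cells called S the summed cluster level was 8.51 and 10.3 UMIs per 10000 under DMSO, 19.5 and 27.3 under TSA, and 18.6 and 23.1 under E6R. In cells called G1 it was 3.68 and 7.14 under DMSO, 11.9 and 22.0 under TSA, and 7.73 and 15.5 under E6R. Treated libraries stood above DMSO within each phase. In G1 the gap was narrow, from 7.14 in DMSO replicate 2 to 7.73 in E6R replicate 1. DMSO replicate 2 had 147 cells called G1 and 95 called S, with 105 and 98 cluster UMIs. H1F0 in cells called G1 was at 0.461 and 0.884 UMIs per 10000 under DMSO and at 5.06 and 9.18 under TSA. The DMSO values rest on 14 and 13 UMIs.

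The machinery that transcribes and trims cluster mRNAs was read from a list of 17 genes. Under TSA 5 of the 17 were higher and 2 lower (41.2%, against 29.7% of all genes); under E6R none passed against DMSO, and against TSA 3 were higher and 2 lower (29.4%, against 38.2% of all genes). SLBP, which binds the stem-loop, had 53.5 and 51.6 CPM under DMSO, 82.0 and 109 under TSA, and 54.1 and 71.2 under E6R. Its TSA libraries were the highest (log2 fold change 0.86, adjusted p = 0.0260). The call was lost with total counts (adjusted p = 0.105), in cells called G1 (0.409) and in cells called S (0.550). It was also lost without DMSO 1, DMSO 2, TSA 1 or TSA 2, at log2 fold changes of 0.93, 0.75, 1.08 and 0.68. For E6R against TSA the adjusted p of SLBP was 0.0651, and 0.0360 with the replicate block. NPAT, the coactivator of cluster histone transcription, had 43.8 and 38.1 CPM under DMSO, 68.0 and 60.6 under TSA, and 50.9 and 53.2 under E6R. NPAT was called (0.65, adjusted p = 0.0397), but kept the call in only 7 of 20 alternatives. It was lost with total counts (adjusted p = 0.248), in thinned cells (0.0641) and in cells called S (0.822). It was also lost without DMSO 1, DMSO 2, TSA 1 or TSA 2, at log2 fold changes of 0.80, 0.48, 0.60 and 0.77. CASP8AP2, also known as FLASH, needed for the cleavage of the mRNA, was at 75.8 and 73.1 CPM under DMSO and 78.2 and 69.8 under TSA (adjusted p = 0.977). LSM11, a part of the U7 particle that guides the cleavage, was at 17.0 and 9.18 CPM under DMSO and 8.13 and 7.57 under TSA (adjusted p = 0.158). Other genes of the list were called and are named after their values were seen. CPSF2 had 147 and 159 CPM under DMSO, 71.5 and 68.8 under TSA, and 190 and 183 under E6R. It was lower under TSA than under DMSO (log2 fold change -1.12, adjusted p = 0.00420). For E6R against TSA it was higher (1.41, adjusted p = 0.00117). ERI1 (1.26, adjusted p = 0.00636), ZNF473 (1.15, 0.0147) and CPSF3 (0.62, 0.0442) were higher under TSA than under DMSO.

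Of 28 genes for histone chaperones and deposition, 4 were higher and 4 lower under TSA (28.6%, near the 29.7% of all genes), none passed for E6R against DMSO, and 10 were higher and 3 lower under E6R than under TSA (46.4%, against 38.2% of all genes). SET, a chaperone and inhibitor of histone acetylation, had 968 and 859 CPM under DMSO, 337 and 311 under TSA, and 1191 and 1259 under E6R. The TSA libraries were far below the rest (log2 fold change -1.50, SE 0.20, adjusted p = 0.00219). ANP32E, which removes H2A.Z from chromatin, had 198 and 131 CPM under DMSO, 60.5 and 66.3 under TSA, and 253 and 239 under E6R, the same order (-1.38, SE 0.24, adjusted p = 0.00534; 0.0571 and 0.0519 without TSA 1 and TSA 2).

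CABIN1 and ASF1B moved the other way. CABIN1, a partner of the H3.3 chaperone HIRA, had 52.9 and 44.6 CPM under DMSO, 120 and 151 under TSA, and 41.1 and 38.2 under E6R (log2 fold change under TSA 1.47, adjusted p = 0.00270). ASF1B, which hands over H3 and H4 in dividing cells, had 22.3 and 37.7 CPM under DMSO, 74.3 and 93.0 under TSA, and 22.6 and 37.5 under E6R (1.48, adjusted p = 0.0148). Without DMSO 1, TSA 1 or TSA 2 the adjusted p of ASF1B was 0.0758, 0.0518 and 0.0961. In both genes only the TSA libraries were raised. NASP, an H3 and H4 carrier that is also on the S phase list (as are SLBP and CASP8AP2), had 242 and 167 CPM under DMSO, 133 and 130 under TSA, and 328 and 253 under E6R (adjusted p = 0.0805 for TSA against DMSO; 0.0383 with the replicate block and 0.0419 with DESeq2). DAXX, an H3.3 chaperone, had 101 and 78.6 CPM under DMSO, 59.9 and 58.2 under TSA, and 103 and 110 under E6R (adjusted p = 0.0510; 0.0429 with the replicate block and 0.0217 with DESeq2). HIRA (adjusted p = 0.510) and CHAF1A, the large subunit of the replication chaperone CAF-1 (adjusted p = 0.834), did not pass under TSA, at group means of 10.4 and 12.8 CPM for HIRA and 161 and 153 CPM for CHAF1A under DMSO and TSA.

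The 22 members that could not be tested were near or at 0. No UMI was counted for 8 of them (H2BFS, H2BFWT, H2AFB1, H2AFB2, H2AFB3, HIST2H3A, HIST2H3C and HIST1H4K), which over all cells allows a level of up to 0.0382 CPM by plain totals. The other 14 had 1 to 43 UMIs in all. HIST2H2AA3 and HIST2H2AA4, HIST2H3A and HIST2H3C, and HIST2H4A and HIST2H4B are near-identical copies, so their counts are uncertain, as the way reads with several matches were counted is not stated.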

How the data were processed

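Single-cell RNA was measured in 6 libraries of 3 groups. The deposited matrices hold whole-number UMI counts per gene and barcode, not normalized; STARsolo 2.7.9a and GRCh38 are named per the submitters' processing notes, while which annotation, counting strand and barcode rule were applied is not given in the sources used here. A barcode counted as a cell from 500 genes upward and with no more than 20% mitochondrial UMIs, no doublet caller was run, and UMIs were summed per library. The sums were tested with edgeR 4.0.16 (quasi-likelihood, TMM, filterByExpr, group as the only term, all 6 libraries, 3 residual degrees of freedom, Benjamini-Hochberg over 16763 genes, threshold 0.05); DESeq2 1.42.0 was an alternative. The filter lay near 0.725 CPM. Counts for TSA against DMSO were also simulated, with 17475 unchanged genes tested and the same spread for every gene. There edgeR recovered 9% of 100 genes changed 2-fold and 79% of 100 changed 4-fold. In the data far more genes were called (29.7%), so recovery there may not be the same. Same-numbered replicates of different groups deviated together (correlation over 7515 genes 0.24 for DMSO and TSA, 0.56 for DMSO and E6R, 0.17 for TSA and E6R), so a fit with the replicate number as a block is given beside named genes whose call it changed. Cell cycle phases come from scanpy 1.11.5, after thinning every cell to 1000 UMIs. Named members are the variants of at least 5 CPM, the 12 most abundant cluster genes, and up to 4 of the largest rises and falls per comparison. The pathway genes were set by name, with up to 2 more per direction. CPSF2, CPSF3, ERI1 and ZNF473 were added after their values were seen. Members and lists were chosen with earlier results of these data known. Protein sequences are not used here, and 1 gene of the neuroblastoma marker list is not reported here.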

Additional observations from a re-analysis of the deposited data

Results flagged for a closer look

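In barcodes with fewer than 500 genes, which the comparisons leave out, the cluster sum under both compounds and H1F0 under TSA were above DMSO. The summed cluster level there was 21.06 UMIs per 10000 under TSA (17.4 and 24.7) and 22.88 under E6R (20.2 and 25.6), against 9.46 under DMSO (7.74 and 11.2). H1F0 there was at 8.593 UMIs per 10000 under TSA (6.56 and 10.6), against 0.690 under DMSO (0.493 and 0.888). Under E6R it was at 0.760 and 1.02 and overlapped DMSO. The variants without H1F0 overlapped DMSO too, at 25.6 and 28.5 under DMSO, 29.9 and 24.4 under TSA, and 39.1 and 27.7 under E6R. Whether these barcodes hold small cells or free RNA was not tested.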

How the results depend on the processing

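There were 20 alternatives; where a library was left out, the lone library of its group was assumed to vary like the others. The 37 members called for TSA against DMSO became 20 in cells thinned to 1000 UMIs, 16 in cells called S and 7 in cells called G1, where fewer genes were tested, and 10 to 43 with a library left out. The 18 called for E6R against TSA became 9 in cells called G1 and 4 to 17 with a library left out. The 0 for E6R against DMSO became 11 with DESeq2, 32 without a low-count filter and 1 with the replicate block; the cause was not tested. The replicate block gave 42 calls for TSA against DMSO and 23 for E6R against TSA; it added 11 calls among members over the 3 comparisons and removed none. It also gave 4 S phase genes lower under TSA in place of 2, 3 cluster H1 and 5 cluster H2A calls in place of 1 and 2 for E6R against TSA, and 4 neighbouring pairs with both genes called in place of 2. The summed cluster log2 ratio of E6R to TSA, -0.19, was -0.73 in cells called G1 and ran from -0.44 to 0.069 with a library left out (0.015 without E6R replicate 1, 0.069 without TSA replicate 2). The summed ratios against DMSO kept their sign in every alternative. Fitted values that changed sign belonged to genes not called, and are log2 fold changes.

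For TSA against DMSO, H2AFV (0.10) was -0.13 in thinned cells, -0.019 with thinned library sums, -0.074 in cells called S and -0.21 with total counts. H2AFY (-0.20) was 0.019 with all barcodes and 0.16 in G1. HIST1H2AC (0.02) was -0.019 with DESeq2, -0.020 with RLE factors, -0.088 with thinned sums, -0.063 without the filter, -0.58 in G1, -0.025 with 2 groups, -0.29 with total counts, -0.065 without mitochondrial and ribosomal protein genes and -0.013 without the 5% of largest cells. HIST1H2AH (0.26) was -0.31 in thinned cells and -0.045 with total counts. CASP8AP2 was 0.11 with all barcodes and 0.041 in G1, CHAF1A 0.10 with all barcodes, and HIRA -0.045 in G1, -0.20 in S and -0.024 with total counts. With a library left out the ranges were -0.10 to 0.29 for H2AFV, -0.51 to 0.10 for H2AFY, -0.41 to 0.64 for HIST1H2AC, -0.0075 to 0.59 for HIST1H2AH, -0.11 to 0.11 for CASP8AP2 and -0.25 to 0.11 for CHAF1A.

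For E6R against DMSO, H1F0 was -0.084 with total counts, H3F3B -0.059 in thinned cells and HIST1H2BD -0.048 in G1. H2AFX was 0.11 with all barcodes, 0.029 with 300 genes, 0.013 in thinned cells, 0.16 without the filter, 0.0079 with the replicate block and 0.0011 without mitochondrial and ribosomal protein genes. HIST1H2BG was 0.030 with all barcodes, 0.0070 with 300 genes, 0.13 without the filter and 0.40 in S. Leaving out a library gave -0.093 to 0.42 for H1F0, -0.33 to 0.081 for H2AFV, -0.17 to 0.37 for H2AFX, -0.075 to 0.996 for HIST1H2AC, -0.15 to 1.03 for HIST1H2BD and -0.25 to 0.30 for HIST1H2BG. For E6R against TSA, HIST1H1B was -0.49 in G1, HIST1H1D -1.05 in G1 and -0.0064 in S, and HIST1H2AC -0.078 in thinned cells; with a library left out HIST1H2AL ran from -0.74 to 0.26, HIST1H4C from -0.90 to 0.072 and HIST2H2AC from -1.08 to 0.052.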
